A study of Sus scrofa with 12 samples.

Results

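Cathepsins are the proteases of the lysosome, and the 10 genes described here, CTSA, CTSB, CTSC, CTSD, CTSF, CTSH, CTSL, CTSS, CTSZ and LGMN, encode 9 of them and legumain. They were taken by symbol from a fixed list, and all 10 were found among the 35682 genes counted and among the 13844 genes tested. Their RNA was measured in 12 libraries of heart tissue from 6 pigs, 1 from the border zone next to the infarct and 1 from the remote zone in the posterior wall of each animal. The animals are named by their numbers, 1022, 1322, 1323, 1623, 1922 and 3622. All were female Yorkshire pigs of 10 to 12 weeks that had a balloon occlusion of the left anterior descending artery (LAD) for 60 minutes followed by reperfusion. From day 9 all received tacrolimus at 0.75 mg/kg/day, with daily doses of 500 mg of mycophenolate mofetil and of 20 mg of prednisolone, and these drugs act on immune cells. On day 14 they received either topical vascular organoids of human endothelial progenitor cells and smooth muscle cells grown from mesenchymal cells or fibrin glue alone, and hearts were taken 4 weeks later. The treatment of each animal was not used, so both treatments may be mixed within a region, and no uninjured heart was analysed here. The libraries are of whole tissue pieces, in which border zone tissue may also hold human cells of the organoids.

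Cathepsins are made as inactive precursors, carried to the lysosome by mannose 6-phosphate receptors and activated in its acid interior, where they cut proteins taken up from outside or delivered by autophagy. CTSB, CTSC, CTSF, CTSH, CTSL, CTSS and CTSZ are cysteine proteases, CTSD is an aspartic protease, CTSA is a serine carboxypeptidase and LGMN is an asparaginyl endopeptidase that also processes other cathepsins. All heart cells have lysosomes, and macrophages are rich in them. Secreted cathepsins can also degrade matrix, and cystatins hold cysteine cathepsins and legumain in check.

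Of the 10 genes, 2 were significantly higher in border than in remote tissue, CTSH and CTSL, and 0 were lower, in the quasi-likelihood test of edgeR, with p-values adjusted by Benjamini and Hochberg's method over all genes tested. Over all genes, 2.06% were called higher and 0.0144% lower at the same threshold, an adjusted p under 0.05. CTSL reached the cutoff of the filter on low counts in 5 border zone libraries and 1 remote zone library, which limits its call. CTSS, LGMN and CTSB had positive log2 fold changes between 0.86 and 1.71 that did not pass, and CTSD, CTSZ, CTSC, CTSF and CTSA lay between -0.17 and 0.42. With the animal as a block, none of the 10 passed the adjusted threshold in edgeR, while CTSB, CTSH, CTSL, CTSS and LGMN, 5 in all, had an unadjusted p under 0.05, as in the fit without the block. Of all genes, 0.289% were called higher with the block. At an unadjusted p under 0.05 the fit with the block found 4069 of 13844 genes, in either direction. The fit without the block found 17.0% of all genes higher at that level, and 24.7% in either direction. The median log2 fold change of the 10 genes was 0.64, beside 0.04 for all genes tested, and 7 of 10 were above 0, beside 53.3% of all genes. Without animal 1022 that median was 0.29 and none of the 10 passed, where 1.14% of all genes were called higher.

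Border zone libraries held between 15130210 and 30526110 counts, and remote zone libraries between 20091415 and 31618680. The border zone library of animal 3622 had the smallest total and listed 28024 genes, against 20148 in the next. The border zone library of animal 1022 stood apart in its tissue markers. Its summed level of 11 cardiomyocyte markers was 13145 CPM (counts scaled to a common library size by TMM), the lowest of the 12 libraries, where the remote zone ranged from 57482.5 to 97080.8. Its summed level of 13 fibroblast and matrix markers was 81877 CPM, the highest of the border zone, where the lowest was 4145.6 and the median 10867. The remote zone had 1384.5 to 3412.4. The cardiomyocyte markers of the labelled tissue were present in every library. The animals are the replicates. The fit with region only takes the 12 libraries as independent, and only the fits with the animal as a block take their pairing into account.

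Positions are given on Sscrofa11.1, from the RefSeq annotation matched to the counted Ensembl genes by symbol. CTSH (ENSSSCG00000001770) is at chr7:48084882-48106072 and LGMN (ENSSSCG00000002452) at chr7:114176217-114210096. CTSS (ENSSSCG00000006648) is at chr4:98415273-98442952, next to CTSK at chr4:98389459-98404969. CTSB (ENSSSCG00000023666) is at chr14:15014139-15035081 and CTSC (ENSSSCG00000014924) at chr9:21726628-21761796. CTSD (ENSSSCG00000040793) and CTSF (ENSSSCG00000038918) are both on chromosome 2, at chr2:1188548-1197642 and chr2:5855083-5860258. CTSA (ENSSSCG00000007431) at chr17:48082480-48089971 shares 354 of its 1884 exon bases with NEURL2 and 183 with PLTP, both on the opposite strand. Since the libraries were nondirectional, reads from those bases cannot be assigned to a strand, and the level of CTSA is uncertain to that extent. CTSZ (ENSSSCG00000007522) at chr17:59141497-59149377 shares 3 exon bases with NELFCD.

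CTSL (ENSSSCG00000010948), at chr10:27668523-27674705, has a close relative on the same chromosome, CTSV at chr10:25202360-25208058, which RefSeq lists with the synonyms CTSL, CTSL1 and CTSL2. Their coding sequences are 86.4% identical over 987 aligned bases. The longest run that they share is 46 bases, and every 150-base window of the CTSL coding sequence holds at least 8 positions that differ from CTSV or have no aligned base there. The spliced stretch around that run, coding bases 195 to 294 of both genes in the sense direction, is shown with the 8 differing bases in capitals.
CTSL, chr10:27673385-27673585, minus strand: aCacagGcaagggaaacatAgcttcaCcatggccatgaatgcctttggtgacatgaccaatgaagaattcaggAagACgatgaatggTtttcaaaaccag
CTSV, chr10:25204118-25204320, plus strand: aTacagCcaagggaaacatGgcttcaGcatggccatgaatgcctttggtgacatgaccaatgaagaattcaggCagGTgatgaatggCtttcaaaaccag

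Which of the 2 genes is the counterpart of cathepsin L of other species was not decided here, so the values of CTSL are those of the gene with that symbol only. CTSL had 0.146 to 4.86 CPM in border tissue and 0.104 to 0.420 CPM in remote tissue. CTSV, named here after its values were seen, had 27.7 to 48.8 CPM and 27.5 to 49.4 CPM there. The ranges of CTSV in both regions overlapped almost wholly, and its log2 fold change was 0.08 (standard error 0.20, adjusted p = 0.84 by edgeR).

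Per length of exon, CTSD was the most abundant of the 10 genes in both regions. Its border zone level was 219.8 to 898.5 CPM per kb of exon (median 426.3), and its remote zone level 261.2 to 417.6 (median 344.8). CTSD cleaves proteins in the lysosome at acid pH, and it took 34.6% to 54.5% of the summed CPM of the 10 genes in border tissue and 38.7% to 48.5% of it in remote tissue. CTSZ, a carboxypeptidase, came second, with a median of 120.9 CPM per kb in the border zone and 110.4 in the remote zone, below CTSD in all 12 libraries.

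In the remote zone the order by median was CTSD, CTSZ, CTSA, CTSB, CTSC, LGMN, CTSF, CTSH, CTSS and CTSL. The ranges of the 6 libraries were apart between CTSD and CTSZ, between CTSZ and CTSA, and at each step from CTSF down to CTSL. From CTSA to CTSF the ranges of neighbours overlapped, and LGMN was above CTSF in 3 of 6 libraries. In the border zone the order was CTSD, CTSZ, CTSB, CTSA, LGMN, CTSC, CTSH, CTSF, CTSS and CTSL, and there only the ranges of CTSS and CTSL were apart. CTSH was above CTSF in 3 of 6 border zone libraries and in none of the remote zone libraries.

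**Figure D1:**
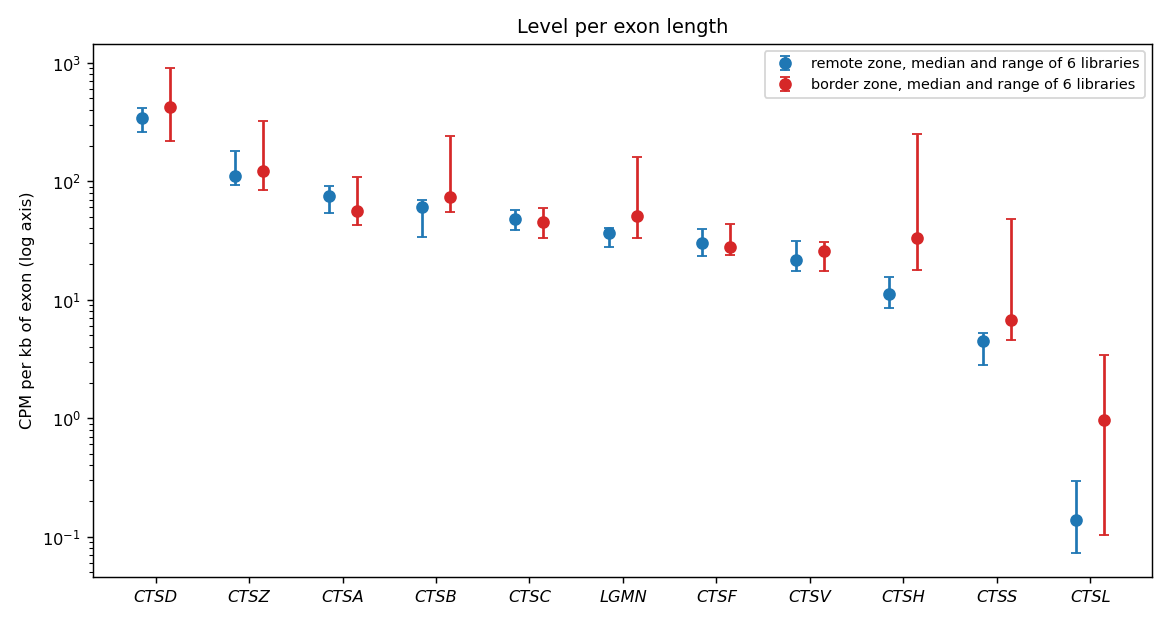
Level of the 10 genes and of CTSV in CPM per kb of exon (log axis), as median and range of the 6 libraries of each region, in order of the remote zone median. CTSD is highest and CTSL lowest in both regions, and the border zone ranges of CTSH, CTSS and CTSL reach far above those of the remote zone.

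CTSH, an aminopeptidase of the cysteine cathepsin family, showed the clearest separation between the regions. In the border zone it had 356.4 CPM in animal 1022, 79.5 in 1623, 56.2 in 3622, 37.7 in 1323, 25.7 in 1322 and 25.3 in 1922. In the remote zone it had 12.1 to 22.2 CPM, with a median of 15.9. Every border zone library was thus above every remote zone library, as for 1.99% of all genes tested, and CTSH was the only one of the 10 genes of which this was true. The log2 fold change was 2.55 (standard error 0.61, adjusted p = 0.0489 by edgeR), and 1.79 (0.50, adjusted p = 0.0864) with the block. Without animal 1022 it was 1.43 (adjusted p = 0.0552), and without only the border zone library of that animal the adjusted p was 0.022. The differences within animals ranged from 0.21 in animal 1322 to 4.42 in animal 1022 on the log2 CPM scale, with a median of 1.40, or 1.31 without animal 1022.

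CTSL had few counts, 359 in all in the 6 border zone libraries and 33 in the 6 remote zone libraries. In the border zone it was counted 147 times in animal 1022, 128 in 1323, 36 in 1623, 25 in 3622, 20 in 1922 and 3 in 1322. In the remote zone the counts ranged from 2 to 11. It passed the filter on low counts (0.419 CPM) in 5 border zone libraries and in 1 of the remote zone, so mostly through the region where it was higher, and its call carries that limit. The log2 fold change was 3.08 (standard error 0.68, adjusted p = 0.035 by edgeR), and 2.72 (0.66, adjusted p = 0.0798) with the block. Animal 1322 had 3 counts in the border zone and 4 in the remote zone, and the other 5 animals were higher in the border zone. Without animal 1022 the log2 fold change was 2.53 (adjusted p = 0.111 by edgeR), and without only the border zone library of that animal 2.63 (adjusted p = 0.0495). Without animal 1623 CTSL did not pass the filter and was not tested.

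CTSS, which trims the invariant chain of class II molecules and stays active at neutral pH, was higher at the border in 6 of 6 animals but did not pass the threshold. Its border zone CPM was 193.5 in animal 1022, 57.7 in 1623, 29.3 in 1323, 25.2 in 3622, 19.1 in 1322 and 18.5 in 1922, and its remote zone CPM ranged from 11.4 to 21.1 (median 18.2). The groups overlapped in the libraries of animals 1322 and 1922. The log2 fold change was 1.71 (standard error 0.53, adjusted p = 0.0892 by edgeR), and 0.80 (adjusted p = 0.205) without animal 1022, and the adjusted p was 0.122 with the block. The call was made by the Wald test of DESeq2 (adjusted p = 0.0217), in which 8.42% of the 16776 genes with an adjusted p were called higher.

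LGMN, the activator of other cathepsins, was also higher at the border in 6 of 6 animals, with 65.6 to 319.8 CPM (median 100.1) against 54.9 to 80.3 CPM (median 72.5) in the remote zone. The highest border zone values were in animal 1022 and then in animal 1623 (142.4 CPM), and those of animal 1922 and the remote zone overlapped. Its log2 fold change was 0.94 (standard error 0.33, adjusted p = 0.119 by edgeR), and 0.49 without animal 1022. CTSH, CTSS and LGMN were the 3 genes of the 10 that were higher in all 6 animals, where 11.7% of all genes tested were.

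CTSB, an abundant cysteine protease of broad specificity, had 694.4 CPM in the border zone of animal 1022, 319.4 in 1623, 243.8 in 1322, 187.4 in 1323, 165.0 in 1922 and 160.9 in 3622. In the remote zone it had 98.2 to 203.5 CPM (median 176.4). It was higher at the border in 5 of 6 animals, and in animal 1922 the regions differed by -0.06 on the log2 CPM scale. The log2 fold change was 0.86 (standard error 0.36, adjusted p = 0.163 by edgeR), and 0.47 without animal 1022.

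CTSD had 442.8 to 1810.5 CPM in the border zone (median 859.0) and 526.4 to 841.5 CPM in the remote zone (median 694.7), and was higher at the border in 4 of 6 animals. Its log2 fold change was 0.42 (standard error 0.30, adjusted p = 0.39 by edgeR), and 0.12 without animal 1022. CTSZ had 118.6 to 461.0 CPM in the border zone and 131.9 to 253.8 CPM in the remote zone, and was higher at the border in 3 animals. Its log2 fold change of 0.23 (standard error 0.32) became -0.20 without animal 1022.

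The remaining 3 genes, like CTSB, CTSD and CTSZ, did not pass the threshold with any of the settings tried. CTSC, which activates the serine proteases of granulocytes and cytotoxic cells, had 155.7 to 277.8 CPM in the border zone and 182.2 to 269.2 CPM in the remote zone. Its log2 fold change was -0.04 (standard error 0.18, adjusted p = 0.924 by edgeR), and it was higher in 3 of 6 animals. CTSF, a further cysteine protease, had 57.9 to 107.0 CPM at the border and 56.7 to 96.5 CPM in remote tissue. The log2 fold change was -0.02 (standard error 0.19). CTSA, which also protects other lysosomal enzymes, had 80.2 to 205.8 CPM in the border zone and 101.9 to 171.4 CPM in the remote zone. It was lower at the border in 4 of 6 animals, and the log2 fold change was -0.17 (adjusted p = 0.688 by edgeR). Without animal 1022 CTSA was at -0.31 (adjusted p = 0.432) and CTSF at -0.23, and without only the border zone library of that animal CTSA was at -0.38. With the block and without both libraries of animal 1022, CTSA was at -0.32 (adjusted p = 0.132). With library totals as the only scaling, which moved the median of all genes from 0.04 to 0.32, CTSA, CTSC and CTSF were at 0.13, 0.24 and 0.32.

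**Figure D2:**
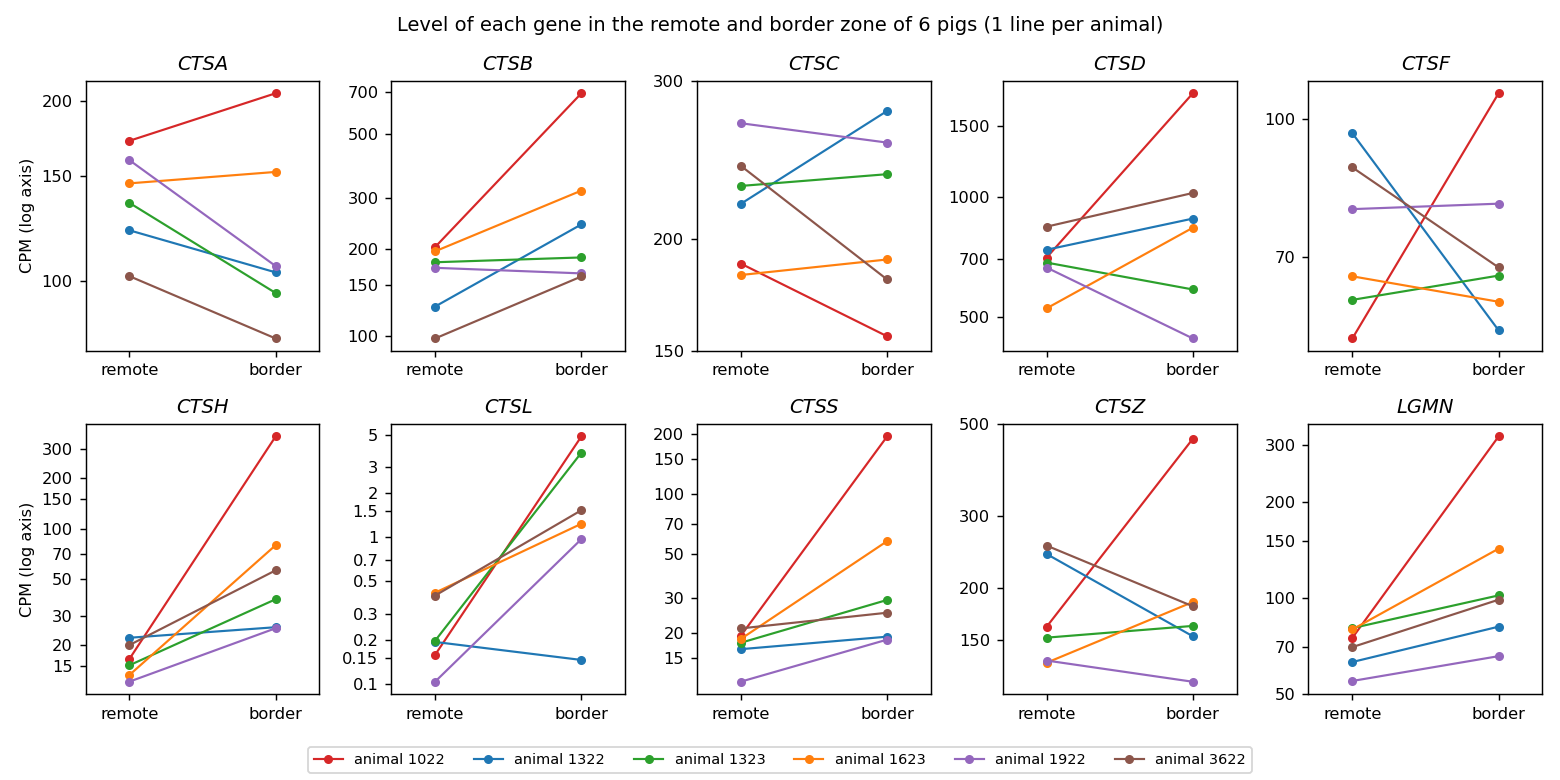
Level of each gene in CPM (log axis, own range in each panel) in the remote and border zone, with 1 line for each of the 6 animals. CTSH, CTSS and LGMN are higher at the border along all 6 lines, CTSC and CTSF along 3, and animal 1022 has the highest border zone value of 9 of the 10 genes.

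**Figure D3:**
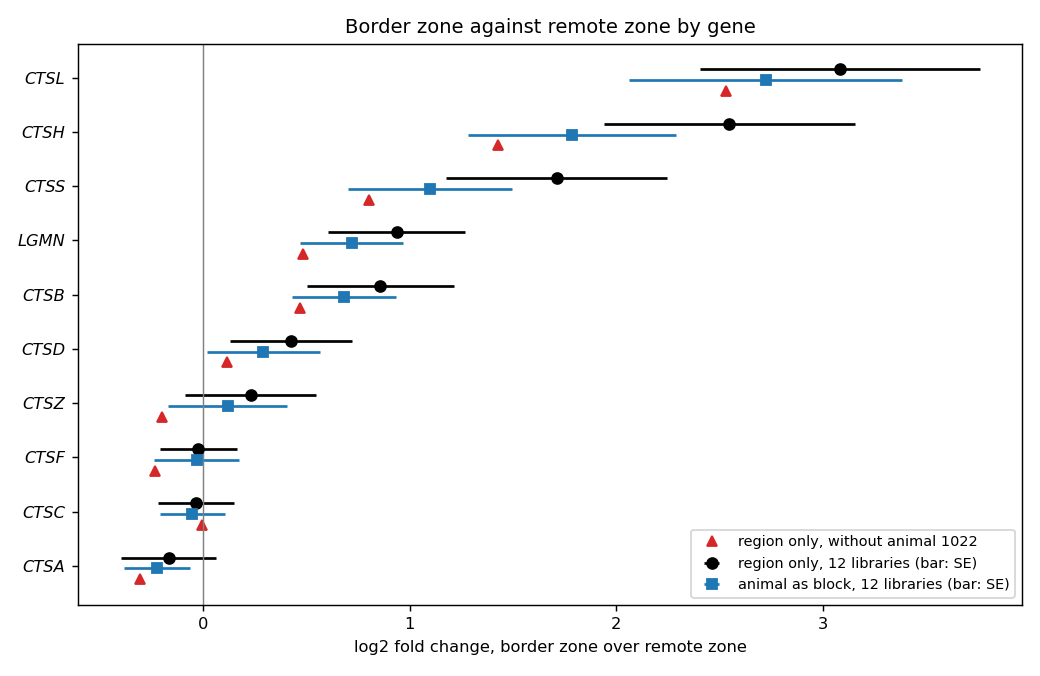
Log2 fold change of border zone over remote zone for each gene, by edgeR with region only and with the animal as block (bars, standard error), and by edgeR with region only without animal 1022. With region only and all animals, the estimates run from -0.17 for CTSA to 3.08 for CTSL, and without animal 1022 those of CTSH, CTSS, LGMN and CTSB stay above 0 while that of CTSZ is below 0.

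Much of the variation lay between border zone libraries. The standard deviation of log2 CPM was larger among border than among remote libraries for 10 of 10 genes, from 1.43 against 0.34 for CTSH to 0.32 against 0.30 for CTSF. The border zone library of animal 1022 was the highest for 9 genes and the lowest for CTSC, and that of animal 1623 was second for 6 genes. In the remote zone, animal 1022 was the highest for 2 genes. Of the CPM summed over border zone libraries, that of animal 1022 took 61.4% for CTSH, 56.4% for CTSS, 39.5% for LGMN, 39.2% for CTSB, 32.5% for CTSD and 12.0% for CTSC. Summed over the 10 genes, the CPM of animal 1022 was 4309 at the border and 1596 in remote tissue. In the other animals border tissue had 1.49 times the remote level in 1623, 1.12 in 1322, 1.08 in 3622, 0.968 in 1323 and 0.821 in 1922.

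Some of the genes followed each other across the 12 libraries, of which each pair from 1 animal shares that animal. On log2 CPM, Pearson's r was 0.98 between CTSS and LGMN, 0.95 between CTSH and CTSS and 0.94 between CTSH and LGMN. Without the border zone library of animal 1022 these were 0.94, 0.87 and 0.82, over 11 libraries. CTSB and CTSD had an r of 0.62, which was 0.01 without that library. CTSC went the other way, with an r of -0.69 to LGMN and -0.67 to CTSS, and of -0.50 and -0.46 without that library. These are descriptions over few libraries.

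For the 5 genes of highest mean CPM, not scaled by length (CTSD, CTSB, CTSC, CTSZ and CTSA), the genes outside the list with the most similar log2 CPM over the 12 libraries were also named. CTSB was closest to USP33 (r = 0.98) and then to ATP6V1A, a subunit of the proton pump that acidifies the lysosome (0.96). CTSA was closest to another subunit of that pump, ATP6V1B2 (0.89), and to M6PR, a mannose 6-phosphate receptor that carries lysosomal enzymes (0.87). CTSZ was closest to AKIP1 and FTL (both 0.94), FTL being the ferritin light chain, and next to SPI1, a transcription factor of myeloid cells (0.94). CTSD was closest to CCNF (0.92) and CD180 (0.90), and CTSC to PRMT3 (0.90). Without the border zone library of animal 1022 the r of these pairs lay between 0.76 for CTSD with CD180 and 0.94 for CTSB with USP33.

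The other genes of the lysosome gave 0 calls in the same edgeR fit, and 11 calls higher and 1 lower among 103 genes in the Wald test of DESeq2. Of all 16776 genes with an adjusted p, that test called 8.42% higher and 307 genes lower. The calls higher were 6 of 34 other hydrolases and related genes, 2 of 4 other cathepsins and 1 of 13 membrane genes. A further 1 of 15 proton pump subunits and 1 of 14 regulators were called higher, with none among 17 sorting genes and 6 inhibitors. CTSK, SGSH, LAPTM5 and TFEC were among those higher (adjusted p = 0.0023, 0.0113, 0.0151 and 0.0387), and LAMTOR1 was the one lower (adjusted p = 0.0472). Of 36 genes tested in the list of other lysosomal hydrolases and related proteins, 30 had log2 fold changes above 0 (median 0.66). An unadjusted p under 0.05, in either direction, was found for 19 of them and for 24.7% of all genes. Without animal 1022 their median was 0.29. GRN, the progranulin gene, had the highest mean CPM of the list, not scaled by length. Its log2 fold change was 1.02 (adjusted p = 0.151 by edgeR), and 0.30 without animal 1022. SGSH, a heparan sulfatase, had the smallest adjusted p, 0.0576, with a log2 fold change of 1.37, and was higher at the border in 6 of 6 animals. Without animal 1022 it was at 0.85 (adjusted p = 0.133). Of 4 other cathepsins tested none passed, and 2 had an unadjusted p under 0.05. CTSK, the collagen-degrading cathepsin K next to CTSS, had a log2 fold change of 3.71 (adjusted p = 0.0526). It reached 955.7 CPM in the border zone of animal 1022, 78.9% of the summed border zone CPM, where the remote zone had 11.4 to 18.3 CPM, and without that animal the log2 fold change was 1.65.

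Genes of lysosomal delivery, membrane and acidification had medians close to that of all genes. The median log2 fold change was 0.03 over 17 genes of sorting and activation, 0.16 over 13 genes of the lysosomal membrane and 0.06 over 14 subunits of the proton pump, with 0 calls in each list. At an unadjusted p under 0.05 there were 2, 3 and 2 genes. PSAP, the precursor of the saposins, had a log2 fold change of 0.53 (adjusted p = 0.283), GNPTAB, which makes the mannose 6-phosphate tag, 1.08 (adjusted p = 0.129), and ATP6V0A2 0.63 (adjusted p = 0.127). LAPTM5, a lysosomal membrane protein of blood cells, had 1.95 (adjusted p = 0.0866). Of 14 regulators of lysosomal genes, 3 were above 0, the median was -0.22 and 4 had an unadjusted p under 0.05 in either direction, a share close to that of all genes. LAMTOR1, a lysosomal anchor of growth signalling, was lower at the border in 6 of 6 animals, with a log2 fold change of -0.52 (adjusted p = 0.124), and TFEC had 1.62 (adjusted p = 0.092). Without animal 1022 PSAP was at 0.14, GNPTAB at 0.40, LAPTM5 at 0.82 and TFEC at 0.86.

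Of 8 inhibitors tested, 6 were above 0 and none passed, with 2 at an unadjusted p under 0.05 and a median of 0.54. CST3, cystatin C, had the highest mean CPM of them, not scaled by length, with 268.2 to 1519 CPM in the border zone and 246.7 to 509.2 CPM in the remote zone. Its log2 fold change was 0.87 (standard error 0.40, adjusted p = 0.193 by edgeR). CSTB, the cytosolic cystatin B, had a log2 fold change of 1.06 (adjusted p = 0.208), SERPINB1, an inhibitor of neutrophil proteases, 0.97 (adjusted p = 0.155), and CST7, which inhibits CTSC, 0.70 (adjusted p = 0.583). CST7 had 45 counts in the border zone library of animal 3622 and at most 26 in any other, and without that library its log2 fold change was -0.12. Without animal 1022 the median was 0.10 over 7 inhibitors, since CST7 was not tested there. CST3 was then at 0.28, CSTB at 0.12 and SERPINB1 at 0.39. Of 5 genes of class II antigen processing, where CTSS and LGMN act, 4 were above 0 with a median of 0.62, 0 calls and 1 unadjusted p under 0.05. CD74, the invariant chain, had a log2 fold change of 0.54 (adjusted p = 0.365), and without animal 1022 it was at 0.053 and the median of these 5 at 0.13.

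**Figure D4:**
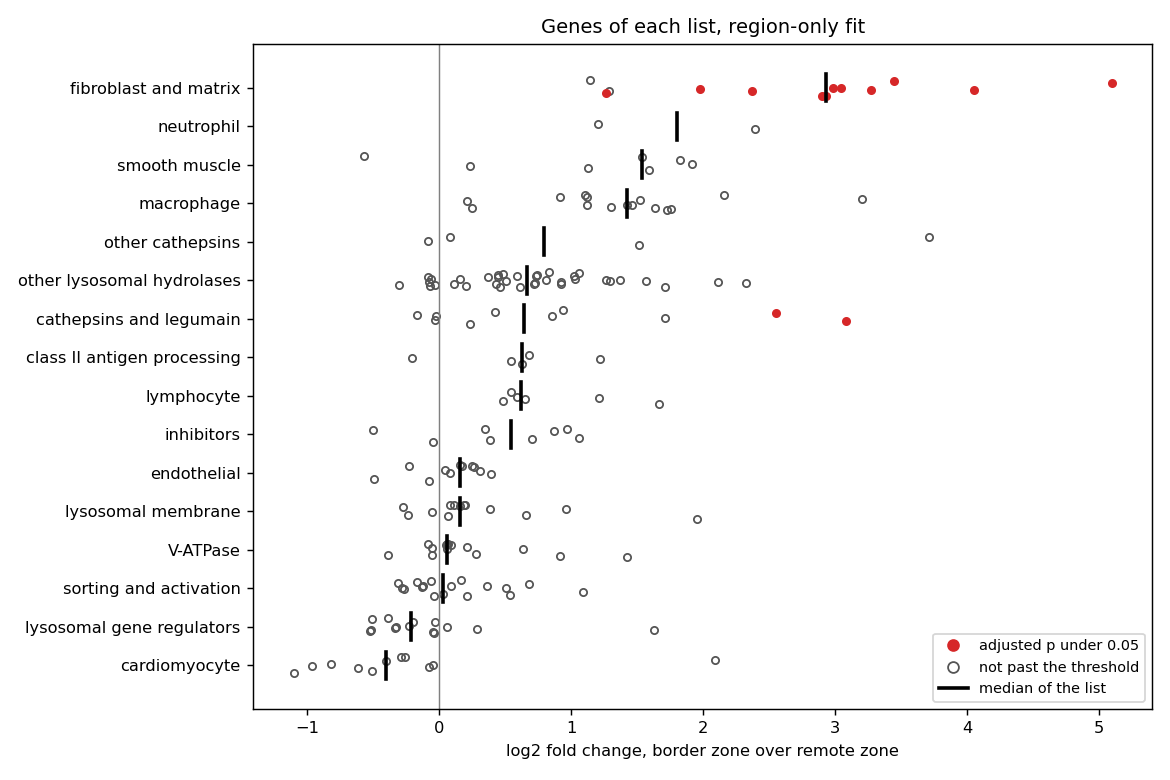
Log2 fold change of border zone over remote zone of every tested gene of each list (points, filled where the adjusted p is under 0.05) with the median of each list (bar), by edgeR with region only. Filled points appear in the list of cathepsins and legumain (2 of 10) and among fibroblast and matrix genes (11 of 13), and the macrophage, hydrolase and smooth muscle lists lie mostly above 0.

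Markers of other cell types were compared in the same fit, and more cells of a type cannot be told apart from more RNA per cell in such pieces of tissue. All 15 macrophage markers tested had log2 fold changes above 0 (median 1.42), with 0 calls in edgeR and 13 at an unadjusted p under 0.05. Their summed level was 191.0 to 1810.5 CPM in the border zone (median 380.2) and 174.7 to 342.3 CPM in the remote zone, higher at the border in 5 of 6 animals. The highest sum was in animal 1022 and that of animal 1623 was 469.6 CPM. CD68, a lysosomal protein of macrophages, had a log2 fold change of 3.20 (adjusted p = 0.0637), and CSF1R, the receptor that keeps macrophages alive, 1.63 (adjusted p = 0.0969). Without animal 1022 the median of the list was 0.55, CD68 was at 1.31 and CSF1R at 0.60. The Wald test of DESeq2 called 5 of 14 macrophage markers higher, CD68 among them, and 8.42% of all genes. It also called higher 12 of 12 fibroblast and matrix, 4 of 6 smooth muscle, 1 of 3 neutrophil and 1 of 10 lymphocyte markers. Of 11 endothelial markers it called 0, and of 11 cardiomyocyte markers it called 1 lower. Of the macrophage markers, MARCO had under 10 counts in every library, as had MPO, S100A8 and S100A12 of the neutrophil list.

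All 13 fibroblast and matrix markers tested were above 0 and 11 were called, with a median of 2.93 and log2 fold changes of 4.05 for COL1A1 and 5.09 for FN1. With the block 1 of the 13 was called, and without animal 1022 there were 10, with a median of 1.77, COL1A1 at 2.37 and FN1 at 2.71. The 11 cardiomyocyte markers had a median of -0.40, 0 calls and 4 with an unadjusted p under 0.05, and their summed level was lower at the border in all 6 animals. Of these markers 1 was above 0, NPPA, the gene of atrial natriuretic peptide, with a log2 fold change of 2.09 (adjusted p = 0.123) and a higher level at the border in 4 of 6 animals. TNNT2 had a log2 fold change of -0.40 (adjusted p = 0.528). Without animal 1022 the median of the cardiomyocyte markers was -0.23, TNNT2 was at -0.23 and NPPA at 1.77. The medians were 0.16 for 11 endothelial, 1.54 for 7 smooth muscle, 0.62 for 6 lymphocyte and 1.80 for 2 neutrophil markers, with 0 calls in edgeR. At an unadjusted p under 0.05 there were 0, 6, 2 and 1 of them, and without animal 1022 the medians were -0.02, 0.80, 0.45 and 1.05. The part of macrophages, matrix cells or cardiomyocytes in the values of the cathepsins and legumain was not tested.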

How the data were processed

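RNA from 2 regions of 6 hearts was sequenced. The deposited files hold raw gene counts that the authors obtained from nondirectional poly(A) libraries by STAR alignment to Sscrofa11.1 and featureCounts with an Ensembl annotation. Reads of transplanted human cells were not told apart here. Region and animal were taken from the labels.

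Counts were filtered by filterByExpr and scaled by TMM in edgeR 4.0.16 (R 4.3.3, limma 3.58.1), and the regions were compared by the robust quasi-likelihood test with region only. Standard errors were derived from the fold change and the F statistic. Log2 CPM used a prior count of 2. DESeq2 1.42.0 was an alternative, as were other scalings and filters, the block, and each animal left out. A number marks 1 animal, which pairs its libraries. As a check, the deviations of paired libraries from their region's mean had an average r of 0.35 over genes, and 4 of 6 pairs were over 0.1. No 2 libraries had counts within sampling noise of each other.

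The cathepsins, legumain and all lists were chosen with earlier results of these data known. All 10 were described. Of each other list, the gene of highest level and those of largest change past the threshold, or else of smallest adjusted p, could be named, and any tested inhibitor. Genes like a member were the 3 of highest r. Symbols came from a table that paired 15623 of 35682 identifiers. Exon lengths were the union of RefSeq exons. The steps were tested on simulated data with 13719 genes, where the comparison of the regions recovered 88.0% of 4-fold and 38.0% of 2-fold changes, and 8 unchanged genes were called. The simulated libraries had no pairing by animal and no outlying library. Changes were placed only in genes of higher mean CPM than CTSL, so these shares hold for that setting only.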

Additional observations from a re-analysis of the deposited data

Results flagged for a closer look

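Each of the 10 genes was examined in each region for a single library far from the other 5, which made 20 groups. By chance about 1 in 20 groups has one, and 1 was found. The log2 CPM of CTSZ was 8.85 at the border of animal 1022 and 7.53 in the next highest border zone library. The same library had the lowest summed cardiomyocyte markers of all 12, and their part in this value was not tested.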

How the results depend on the processing

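The median log2 fold change of the 10 genes stayed above 0 under every alternative, between 0.25 and 0.98, and with each animal left out it ranged from 0.29 to 0.77. The 2 calls, CTSH and CTSL, became 0 with the replicate block and with at least 10 counts in every library, where CTSL was not tested. They became 1 (CTSL) with DESeq2 size factors in edgeR, with no filter and without mitochondrial genes, and 4 with library totals only, where CTSS and LGMN joined them. With each animal left out they ranged from 0 to 2, with 2 without animal 1322. The Wald test of DESeq2 called 3. Of all genes, 287 were called, 41 with the replicate block, 1719 with the Wald test of DESeq2 over 16776 genes with an adjusted p, 1551 with library totals only, 139 with no filter, 149 with at least 10 counts in every library and from 0 to 519 with each animal left out, 0 being without animal 1623 or 3622, with 2662 and 2448 genes at an unadjusted p under 0.05. It was 163 without animal 1022, 519 without 1322, 3 without 1323 and 15 without 1922. Settings added after seeing the data were the fits without the border zone library of animal 1022 (2 of the 10, 307 genes), without that of animal 3622 (0 of the 10, 156 genes) and the replicate block without both libraries of animal 1022 (1 of the 10, CTSH, and 856 genes, 569 higher and 287 lower). Apart from fewer genes or samples, the cause was not tested.

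Values that changed sign were not past the threshold. Under library totals only CTSA was at 0.13, CTSC at 0.24 and CTSF at 0.32. CTSF was at 0.011 with at least 10 counts in every library, 0.10 without animal 1322 and 0.04 without animal 3622. CTSC was at 0.03 without animal 3622, 0.039 without the border zone library of animal 1022 and 0.01 without that of animal 3622, where CST7 was at -0.12. CTSZ was at -0.20 without animal 1022, -0.17 without its border zone library and -0.15 with the block and without both its libraries. CTSV was at -0.062, -0.0029 and -0.048 in these 3 fits and at -0.02 without animal 1922. Of 158 values of the 10 genes under the alternatives, 125 kept both sign and call, 18 became weaker, 3 stronger and 12 reversed. With an animal left out, CTSC ranged from -0.139 to 0.03, CTSF from -0.233 to 0.10, CTSZ from -0.20 to 0.385, CTSV from -0.062 to 0.16 and CST7 from -0.12 to 0.825, over the fits without animal 1322, 1323 or 1922 and those without 1 border zone library. Without animal 1022, 1623 or 3622 CST7 was not tested. With library totals the median difference within animals of CTSA moved from -0.29 to 0.10, the only one of the 10 to move by over 1 standard deviation with those or with a prior count of 0.5. Depth limits CTSL, which had at most 11 counts in a remote zone library.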
